A study of Homo sapiens with 6 samples.

Results

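The genes described here run the mechanical part of cell division: the kinases that drive mitosis, the spindle checkpoint, the kinetochore and the proteins of the spindle and of cytokinesis. The list held 47 genes chosen by symbol, with kinesin motors left out, and all 47 were found among the 24462 distinct symbols of the count files. They were measured in H460, an established human lung cancer cell line grown in RPMI 1640 medium with fetal bovine serum and antibiotics. The depleted group (3 libraries) came from cells kept for 24 h in RPMI 1640 without glutamine and with dialyzed serum, and the replete group (3 libraries) came from cells with glutamine. For the replete cells, titled Gln repletion, the labels give no hours and do not spell out the serum. If the time in culture or the serum differed, its part and that of glutamine cannot be told apart.

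In a dividing cell, cyclin A2 and the B-type cyclins bind the kinase CDK1, CDC25 phosphatases switch it on, and CDK1 then drives entry into mitosis together with the kinases PLK1, Aurora A and Aurora B. Kinetochores built on centromeric chromatin catch spindle microtubules, and the spindle checkpoint holds back the anaphase-promoting complex until every kinetochore is attached. Most of these genes are transcribed in waves that peak in G2 and mitosis, so their RNA in a culture follows how many of its cells are in those phases. In bulk RNA, fewer cells in a phase and less RNA per cell cannot be told apart.

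RNA was sequenced from the 3′ end of polyadenylated transcripts, which gives about 1 read per transcript end whatever its length. Totals ran from 8667798 to 10914899 counts in the depleted and from 7550849 to 9028230 in the replete libraries, and levels are given below as counts per 1000000 counts of the library (CPM). A count of 0 allowed up to 0.397 CPM in the shallowest library (3 counts), and this limit covers counting error only. Depleted replicate 2 stood apart from the other depleted libraries, where a chi-square statistic divided by its degrees of freedom was 17.97 and 10.86 against them and 1.496 to 3.71 in the other pairs within a group. Nothing in the labels says whether the replicates were separate cultures; the p-values then measure the spread among these libraries only, and that spread may be technical. The epithelial keratins KRT8, KRT18 and KRT19 were well above background in every library, while EPCAM and CDH1 stayed under 1 CPM in all 6. The 3 endothelial markers and 4 of 5 blood markers also stayed under 1 CPM in every library, the exception being CD14. The 5 fibroblast markers summed to 38.5 to 96.6 CPM in depleted and 27.5 to 38.5 CPM in replete libraries, with DCN under 1 CPM in all, and their part in the results was not tested.

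Genes of mitosis were mostly lower in the cells without glutamine. Of the 46 members with enough counts to test, 34 fell, 6 rose and 6 did not pass (edgeR's quasi-likelihood test, with an adjusted p under 0.05 as the threshold). The 40 that changed are 87.0% of the tested members, and 78.6% of all genes tested changed in 1 direction or the other. The median log2 fold change of the tested members was −1.14, against −0.02 over all 12739 genes tested. The 34 that fell are 73.9% of the tested members, where 39.4% of all genes tested fell, and the 6 that rose are 13.04%, where 39.1% of all genes rose. By more than 2-fold, 24 members (52.2%) fell and 1 rose, against 23.7% and 21.8% of all genes tested. The 47 members together held 0.442%, 0.453% and 0.440% of all counts in depleted replicates 1, 2 and 3, and 0.748%, 0.736% and 0.748% in replete replicates 1, 2 and 3. The groups did not overlap in this share. In CPM, all 3 depleted libraries lay below all 3 replete ones for 39 tested members, as for 47.8% of all genes tested, and above them for 3 members, as for 33.2% of all genes.

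A log2 fold change below is depleted over replete after trimmed-mean (TMM) scaling between libraries, which is not the scale of the CPM values. The scaling factors were 0.917 to 0.929 in depleted and 1.08 to 1.09 in replete libraries, so a gene with equal CPM in both groups has a fitted log2 fold change near 0.2. With library totals alone in place of these factors, the median gene moved to −0.25, 38 members fell and 2 rose, and over all genes 41.1% of the calls were higher in place of 49.8%.

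**Figure D1:**
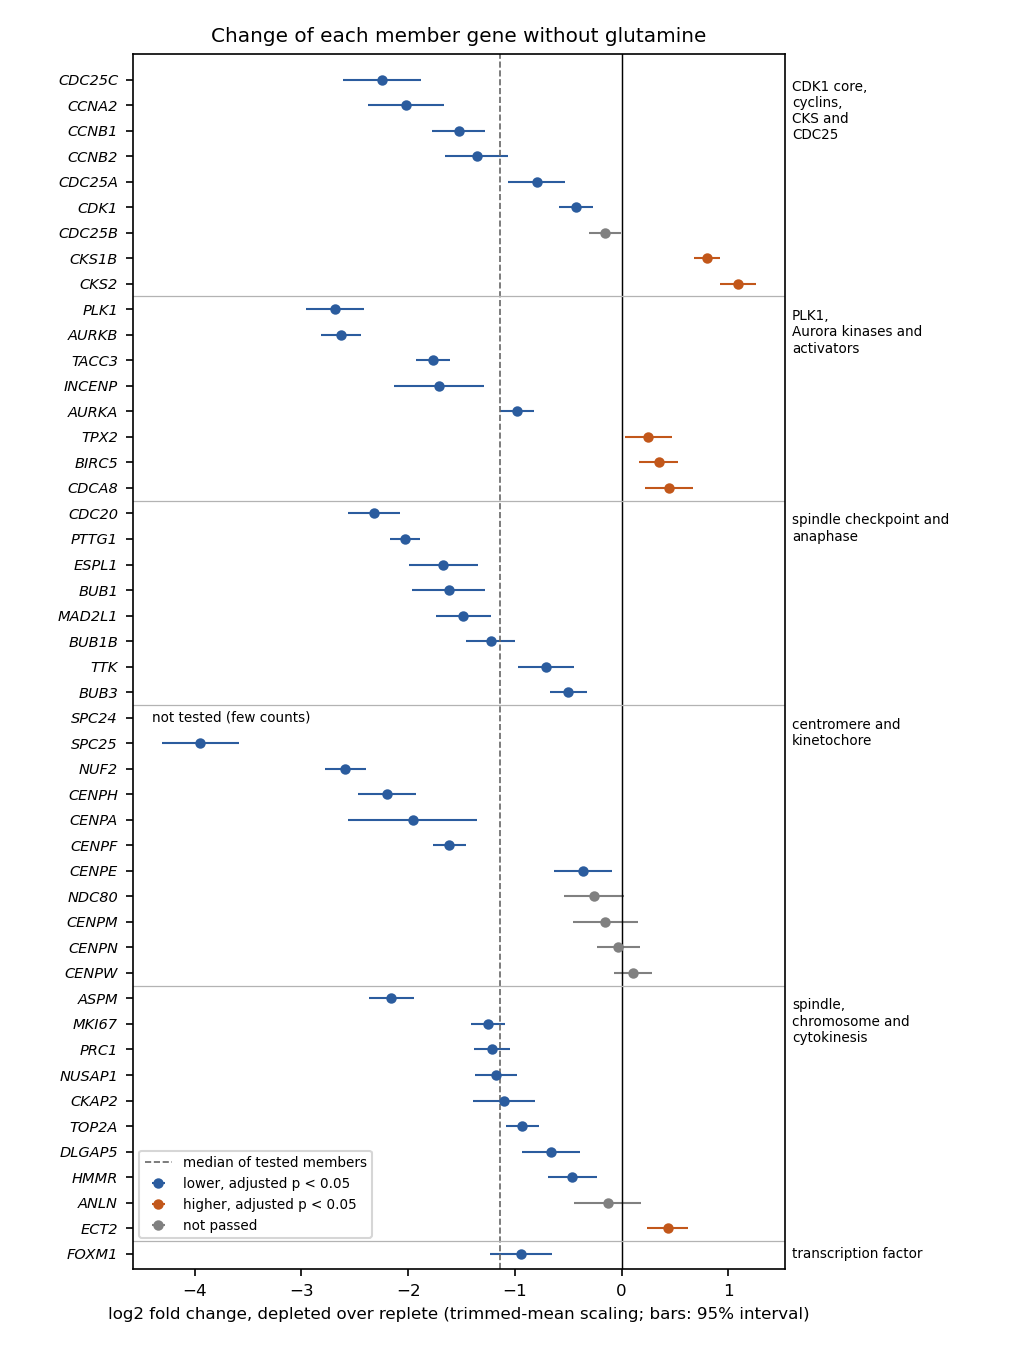
Log2 fold change of each member gene (x axis, depleted over replete after TMM scaling, points with 95% intervals from the edgeR fit) by role, with blue for genes that fell, orange for genes that rose and grey for genes that did not pass an adjusted p of 0.05; the dashed line is the median of the tested members. Most points lie left of 0, with SPC25 at −3.94 the lowest and CKS2 at 1.09 the highest.

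Many genes of this kind share short promoter elements, so their promoters were read for these letters. The RefSeq promoter table (GRCh38.p14, 250 bases before to 50 bases after each transcription start) held 49 windows for 39 of the members. It held none for AURKA, BIRC5, BUB3, CENPH, CENPM, FOXM1, TPX2 and TTK. The cell cycle genes homology region (CHR), an element known to bind the DREAM and MuvB complexes, was searched as TTTGAA on both strands. It was found in 30 of the 49 windows (61.2%), which belong to 27 members, against 15.2% of all 35116 windows in the table. The CCAAT box, the site of the factor NF-Y, was found in 75.5% of member windows against 34.6% of all windows. Both were found in 51.0% against 5.90%, and an E2F-type stretch, TTCCCGC, was found in 12.2% against 6.55%. Matches of different elements can share a base at their ends, as CHR and CCAAT do in CDCA8, and several windows of a gene can share bases. Of 42 CHR matches in member windows, 26 (61.9%) began between 50 bases before and 25 bases after the start, where 22.1% of the matches in all windows lay.

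The stretches around single CHR matches are shown for members that fell, rose or did not pass, in lower case with the match in capitals, 5′ to 3′ on the gene's strand; a match printed as TTCAAA lies on the opposite strand.
PLK1: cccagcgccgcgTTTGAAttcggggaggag
CCNB2: agcgacgcggtaTTTGAAtcctggaacaag
BUB1B: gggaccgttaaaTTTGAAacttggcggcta
CENPA: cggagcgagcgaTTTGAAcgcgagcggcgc
NUF2: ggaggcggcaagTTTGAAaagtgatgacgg
SPC25: aagtgcactaggTTTGAAatcggaaagttg
CKS1B: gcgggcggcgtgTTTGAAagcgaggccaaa
CKS2: cgggctgtcggaTTCAAAtccggatcgttg
CDCA8: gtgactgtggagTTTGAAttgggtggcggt
NDC80: ccggcggagaatTTCAAAttcgaacggctt
CENPN: gcaattggtggcTTTGAAggcgcggcgagc
The first 6 genes fell, the next 3 rose, and NDC80 and CENPN did not pass. These stretches lie in GRCh38.p14 at chr16:23678848-23678877 (plus strand) for PLK1, chr15:59105105-59105134 (plus) for CCNB2, chr15:40161034-40161063 (plus) for BUB1B, chr2:26786026-26786055 (plus) for CENPA and chr1:163321958-163321987 (plus) for NUF2. SPC25 lies at chr2:168890416-168890445 (minus), CKS1B at chr1:154974639-154974668 (plus), CKS2 at chr9:89311154-89311183 (plus), CDCA8 at chr1:37692481-37692510 (plus), NDC80 at chr18:2571542-2571571 (plus) and CENPN at chr16:81007205-81007234 (plus).

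A CHR match was present on either side of the change. It was found in windows of 20 of 29 members that fell, all 4 members with windows that rose (CKS1B, CKS2, CDCA8 and ECT2) and 3 of 5 that did not pass. Other spellings of the element were not searched, so a window without a match is not shown to lack it. Over all 9485 tested genes with a window, 39.7% fell, and of the 1310 with a CHR match 39.8% fell. Of the 547 with both a CHR and a CCAAT match, 41.3% fell, and their median log2 fold change was −0.03. These shares count a match anywhere in the window. In all windows of the table, only 22.1% of CHR matches began between 50 bases before and 25 bases after the start. Genes with a match there were not compared, and a part of the element in the change was not tested. The whole windows of PLK1, which fell, and CKS1B, which rose, are printed with CHR and CCAAT matches in capitals, to show that the same 2 kinds of letters occur in a promoter of either kind.
PLK1: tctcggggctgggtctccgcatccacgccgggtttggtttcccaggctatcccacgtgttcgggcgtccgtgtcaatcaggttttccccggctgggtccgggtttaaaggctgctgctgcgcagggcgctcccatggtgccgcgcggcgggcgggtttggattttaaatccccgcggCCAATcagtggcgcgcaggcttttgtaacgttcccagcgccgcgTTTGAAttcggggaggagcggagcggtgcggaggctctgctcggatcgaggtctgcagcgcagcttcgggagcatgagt
CKS1B: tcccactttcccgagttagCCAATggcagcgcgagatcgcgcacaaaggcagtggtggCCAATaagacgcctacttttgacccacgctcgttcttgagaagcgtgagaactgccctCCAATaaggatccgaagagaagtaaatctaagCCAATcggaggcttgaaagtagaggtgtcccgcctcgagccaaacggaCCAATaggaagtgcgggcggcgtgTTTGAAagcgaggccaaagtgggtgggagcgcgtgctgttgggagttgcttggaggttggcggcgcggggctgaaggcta
The PLK1 window is chr16:23678639-23678938 (plus strand) and the CKS1B window is chr1:154974431-154974730 (plus strand) of GRCh38.p14. PLK1 has 1 CHR and 1 CCAAT match, with the CHR match 29 bases before the start, and CKS1B has 1 CHR and 5 CCAAT matches, with the CHR match 30 bases before the start. A match is a description of letters and does not show that a factor binds there.

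**Figure D2:**
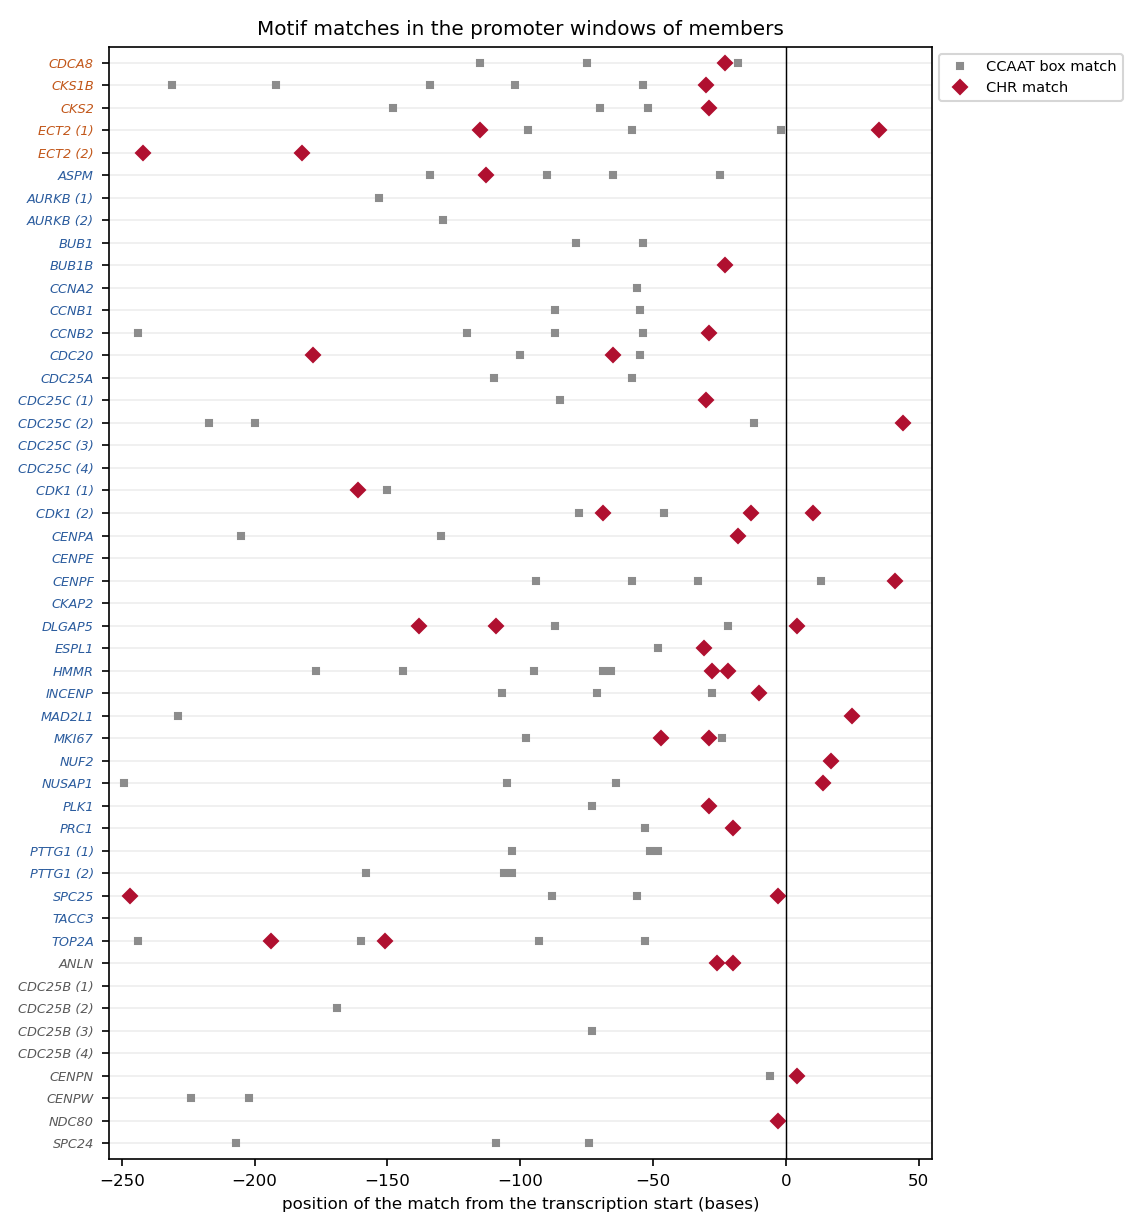
Position of each CHR match (red diamonds) and CCAAT match (grey squares) in the 49 promoter windows of 39 members (y axis, a number in brackets for members with several starts) against the distance from the transcription start in bases (x axis), with names in orange for genes that rose, blue for genes that fell and grey for the rest. Red diamonds gather near the start, with 26 of 42 between 50 bases before and 25 bases after it, in genes of every colour.

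In the core of the mitotic engine, the cyclins and their kinase fell, and the small CKS subunits rose. CCNA2, cyclin A2, stood at 37.7, 21.9 and 34.4 CPM in depleted replicates 1, 2 and 3 and at 154, 149.5 and 143 CPM in replete replicates 1, 2 and 3. Every depleted library lay far below every replete one, and depleted replicate 2 was the lowest. EXOSC9, whose exons overlap those of CCNA2 on the other strand, held 427, 212 and 348 counts in depleted and 854, 702 and 608 in replete libraries. CCNA2 held 411, 191 and 298 counts in depleted and 1386, 1184 and 1082 in replete libraries, and whether the 2 genes share reads was not tested. CCNA2 fell by 2.02 in log2 units (edgeR adjusted p = 1.02e-06, SE 0.16). CCNB1, cyclin B1, was at 22.6, 31.0 and 28.7 CPM in the depleted and 97.5, 89.8 and 89.9 CPM in the replete libraries, without overlap, and fell by 1.53 (SE 0.12, edgeR adjusted p = 5.50e-08). CCNB2, cyclin B2, fell by 1.36, from 86.2 ± 2.68 to 28.7 ± 6.27 CPM (mean ± SD, n = 3 here and below). CDK1, the kinase they activate, measured 290.2, 242 and 275 CPM in depleted and 433, 416 and 422 CPM in replete libraries. It fell by 0.43 (SE 0.07, edgeR adjusted p = 0.000128), and its 95% interval of −0.58 to −0.27 lay above those of the 3 cyclins. The groups did not overlap.

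CKS1B and CKS2 encode small proteins that bind cyclin-dependent kinases and help them recognise phosphorylated substrates. CKS1B stood at 1403, 1406 and 1379 CPM in depleted and at 983, 914 and 918 CPM in replete libraries, and CKS2 at 122, 116 and 119 CPM in depleted and 64.7, 63.4 and 68.6 CPM in replete libraries. All depleted libraries lay above all replete ones for either gene. CKS2 rose by 1.09 (SE 0.08, edgeR adjusted p = 3.26e-08) and CKS1B by 0.80 (SE 0.06, edgeR adjusted p = 3.49e-08). They rose in each of the 17 alternative analyses too, with log2 fold changes of 0.86 to 1.15 for CKS2 and 0.57 to 0.92 for CKS1B, and were the only members that rose with library totals alone.

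The CDC25 phosphatases, which remove inhibitory phosphates from CDK1 and CDK2, differed among themselves. CDC25C was at 4.12, 6.19 and 4.499 CPM in depleted and 27.9, 24.4 and 29.5 CPM in replete libraries, and fell by 2.25 (SE 0.17, edgeR adjusted p = 5.52e-08). CDC25A, which also acts at the start of S phase, fell by 0.80, from 33.6 ± 3.54 to 16.5 ± 1.27 CPM. CDC25B, thought to start CDK1 activation at centrosomes, was at 186 ± 8.01 CPM in depleted and 242 ± 9.82 CPM in replete cells and did not pass (log2 fold change −0.16, SE 0.07, edgeR adjusted p = 0.0565). Its CPM ranges did not overlap. CDC25B passed as lower with library totals alone (−0.38, adjusted p = 0.000190) and without depleted replicate 2 (−0.19, adjusted p = 0.00159). It also passed as lower with upper quartile factors, among genes with a mean of at least 10 CPM and with limma-voom. It passed as higher once a trend with the GC content and length of transcripts had been taken out (0.31, adjusted p = 0.000683), with 0.000190 to 1.000 over its alternatives.

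**Figure D3:**
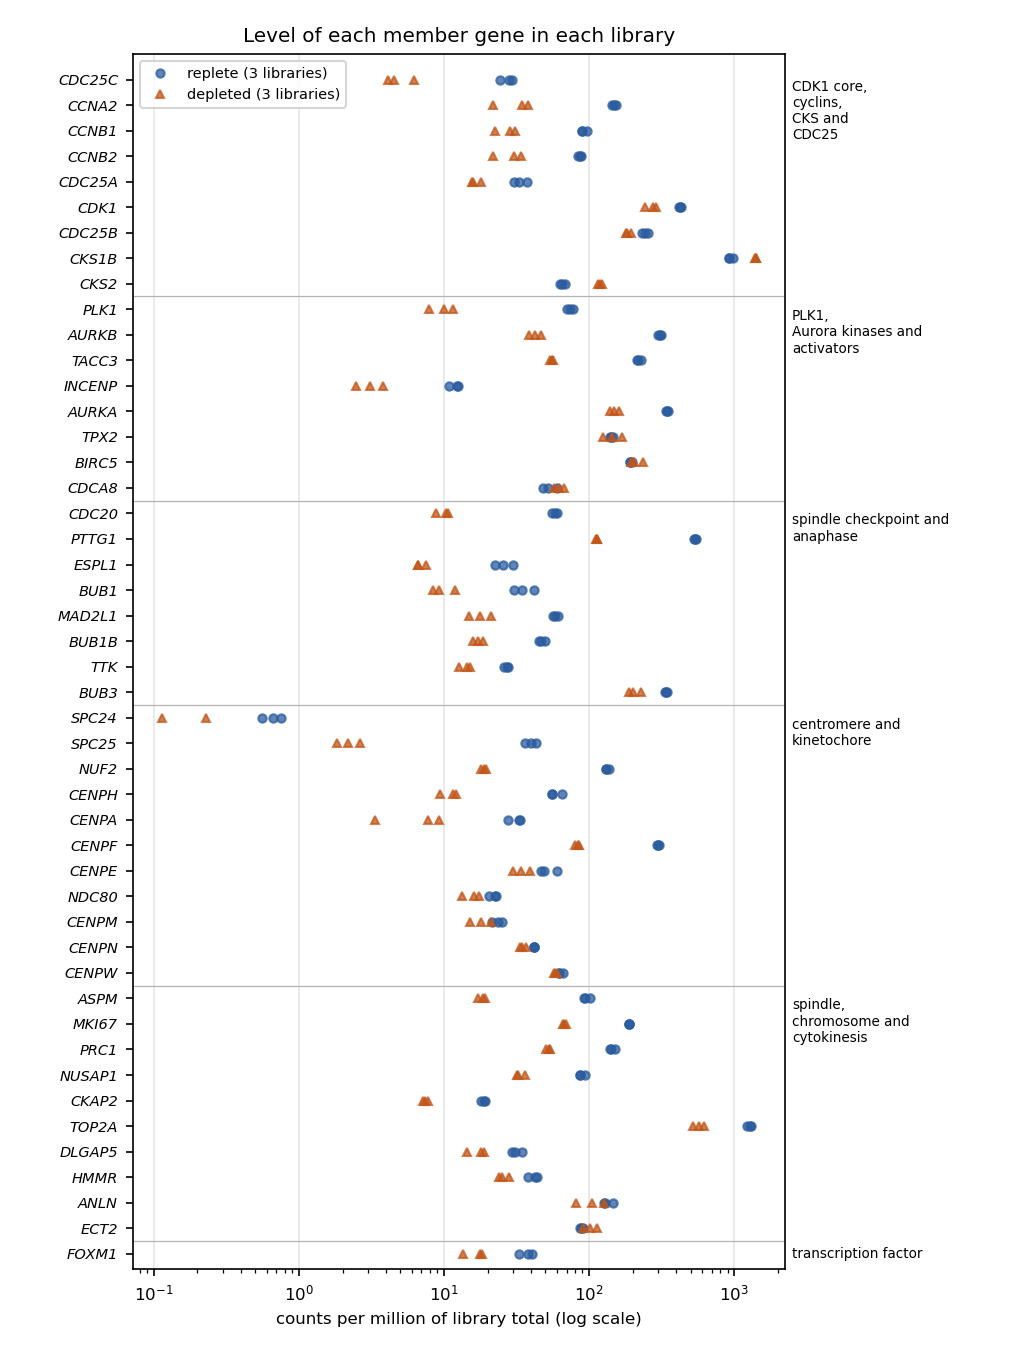
Level of each member gene in CPM (x axis, log scale) in each of the 3 replete (blue circles) and 3 depleted libraries (orange triangles), by role and ordered by log2 fold change; a library with 0 counts has no point (SPC24 in 1 depleted library). The 2 colours stand apart for most genes and mix for TPX2, BIRC5, CDCA8 and ANLN; levels of different genes are not compared.

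Of the 8 genes for PLK1, the Aurora kinases and their activators, 5 fell (62.5%) and 3 rose (37.5%). Of all genes tested, 39.4% fell and 39.1% rose, so the share that rose was near that of all genes. PLK1, the Polo-like kinase that acts from mitotic entry to cytokinesis, was at 11.5, 9.97 and 7.85 CPM in depleted and 77.3, 70.5 and 74.2 CPM in replete libraries. PLK1 fell by 2.68 (SE 0.13, edgeR adjusted p = 6.27e-10), and the lowest replete library was well above the highest depleted one. The exons of PLK1 overlap those of ERN2 on the other strand in GENCODE 29, and ERN2 fell by 2.68 as well, from 51.9 ± 1.74 to 6.86 ± 0.795 CPM. Whether the authors counted by strand is not given, and without it the reads of this gene pair cannot be told apart. The same holds for CCNA2 with EXOSC9, CDC25C with FAM53C, CENPN with CMC2, ANLN with KIAA0895, HMMR with HMMR-AS1 and PRC1 with PRC1-AS1. AURKB, the kinase of the chromosomal passenger complex, stood at 42.5, 46.4 and 38.8 CPM in depleted and 309, 300.4 and 315 CPM in replete libraries, and fell by 2.63 (SE 0.09, edgeR adjusted p = 2.38e-11). AURKA, which matures centrosomes and builds spindle poles, fell by 0.98, from 346 ± 5.66 to 149.8 ± 10.5 CPM. TACC3, its substrate on spindle fibres, fell by 1.77, from 220.3 ± 7.70 to 55.3 ± 1.14 CPM.

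The passenger complex joins AURKB to INCENP, survivin (BIRC5) and borealin (CDCA8), and its 4 genes split. INCENP, the scaffold, fell by 1.71 from 11.9 ± 0.916 to 3.12 ± 0.653 CPM. BIRC5 was at 202, 235 and 193 CPM in depleted and 197, 191 and 192 CPM in replete libraries, ranges that overlap. After TMM scaling it rose by 0.35 (edgeR adjusted p = 0.00192), which did not pass with library totals alone (0.12, adjusted p = 0.194, with 2.65e-06 to 1.000 over its alternatives). CDCA8 was at 62.1, 67.5 and 57.2 CPM in depleted and 60.4, 48.1 and 52.4 CPM in replete libraries, also overlapping, and rose by 0.44 (edgeR adjusted p = 0.00173). It too did not pass with library totals alone (0.21, adjusted p = 0.0763, with 9.58e-06 to 0.912 over its alternatives). TPX2, the spindle protein that activates AURKA, was at 124, 167 and 145 CPM in depleted and 140.1, 142 and 147 CPM in replete libraries. Its fitted rise was 0.25 (SE 0.10, edgeR adjusted p = 0.0363), and the CPM ranges overlap. The rise was 0.02 with library totals alone (adjusted p = 0.836) and 0.04 with upper quartile factors (adjusted p = 0.718), neither passing. The call was also lost among genes with a mean of at least 10 CPM (0.15, adjusted p = 0.210), without depleted replicate 3 (0.26, adjusted p = 0.0683) or without any 1 of the replete libraries (0.0824 to 0.142), with 0.00155 to 1.000 over its alternatives.

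All 8 genes of the spindle checkpoint and of the release of sister chromatids fell, where 39.4% of all genes tested fell. CDC20, the activator of the anaphase-promoting complex that the checkpoint blocks, was at 10.3, 10.7 and 8.77 CPM in depleted and 55.6, 58.1 and 60.3 CPM in replete libraries. It had the steepest fall of this group, −2.32 (SE 0.11, edgeR adjusted p = 8.54e-10). PTTG1, securin, was tight within groups, at 114, 113 and 112 CPM in depleted and 532, 534 and 549 CPM in replete libraries, and fell by 2.02. Its near-identical copies PTTG2 and PTTG3P held 11 to 24 counts in depleted and 53 to 96 in replete libraries, so some reads may have been divided among them. ESPL1, separase, the protease that securin restrains, fell by 1.67, from 25.9 ± 3.60 to 6.91 ± 0.522 CPM.

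Among the sensors, BUB1, a kinase at unattached kinetochores, was at 11.8, 9.28 and 8.42 CPM in depleted and 41.9, 34.5 and 30.5 CPM in replete libraries, and fell by 1.62 (SE 0.16, edgeR adjusted p = 6.87e-07). MAD2L1, the Mad2 protein of the mitotic checkpoint complex, fell by 1.48, and BUB1B, the BubR1 protein of the same complex, fell by 1.23. TTK, the Mps1 kinase that starts checkpoint signalling, fell by 0.71, from 26.9 ± 0.934 to 14.1 ± 1.34 CPM. BUB3, the adaptor of BUB1 and BubR1, had the shallowest fall, −0.50 (SE 0.08, edgeR adjusted p = 7.81e-05), at 187, 228 and 199.6 CPM in depleted and 346, 340.0 and 331 CPM in replete libraries. The 2 groups did not overlap for any of these 8 genes, with depleted below replete, as for 47.8% of all genes tested.

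At the centromere and kinetochore, 6 of 10 tested genes fell (60.0%), none rose and 4 did not pass. Of all genes tested, 39.4% fell and 39.1% rose. The steepest fall of all members was in SPC25, a subunit of the NDC80 complex that grips microtubules. SPC25 was at 1.83, 2.18 and 2.65 CPM (20, 19 and 23 counts) in depleted and 43.1, 36.4 and 39.9 CPM in replete libraries. It fell by 3.94 (SE 0.17, edgeR adjusted p = 1.97e-10), which is 15.4-fold. NUF2, another subunit, was at 19.5, 18.9 and 17.998 CPM in depleted and 129.8, 131 and 137 CPM in replete libraries, and fell by 2.59 (SE 0.09, edgeR adjusted p = 3.46e-11). NDC80, the partner of NUF2, was at 17.3, 13.4 and 16.2 CPM in depleted and 22.6, 20.5 and 22.8 CPM in replete libraries. These ranges did not overlap, but the gene did not pass (log2 fold change −0.26, 95% interval −0.54 to 0.02, edgeR adjusted p = 0.0844). NDC80 passed as lower with library totals alone (−0.49, adjusted p = 0.00426, with 0.00426 to 1.000 over its alternatives) and without depleted replicate 1 (−0.33, adjusted p = 0.0472). It also passed as lower with upper quartile factors and among genes with a mean of at least 10 CPM. SPC24, the fourth subunit, had too few counts to test, 3 over the depleted and 16 over the replete libraries, a replete over depleted ratio of 6.16 with an exact 95% counting interval of 1.76 to 33.01.

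CENPA, the histone H3 variant that marks centromeres, was at 9.25, 3.32 and 7.73 CPM in depleted and 27.8, 33.2 and 32.8 CPM in replete libraries. It fell by 1.96 (SE 0.27, edgeR adjusted p = 0.000103), with the widest relative spread of the tested members among depleted libraries, and fell by 1.64 without depleted replicate 2. CENPH, of the constitutive centromere network, fell by 2.20, from 58.8 ± 5.27 to 11.002 ± 1.39 CPM. CENPF, a large protein of the outer kinetochore, fell by 1.62, from 299 ± 5.61 to 83.3 ± 2.99 CPM. CENPE, a kinesin-related motor that is in the list as a kinetochore protein, was at 39.3, 30.1 and 33.7 CPM in depleted and 46.96, 48.6 and 60.3 CPM in replete libraries. It fell by 0.36 (SE 0.12, edgeR adjusted p = 0.0165), a call that was lost on leaving out depleted replicate 3 (−0.34, adjusted p = 0.0562) or replete replicate 3 (−0.25, adjusted p = 0.0987), within 0.000709 to 1.000 over its alternatives.

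The other members of the centromere network gave small values. CENPN, which reads CENPA nucleosomes, had a log2 fold change of −0.03 (95% interval −0.23 to 0.17) at 34.8 ± 1.63 CPM in depleted and 41.6 ± 0.213 CPM in replete cells. Its exons overlap those of CMC2 on the other strand, which rose by 0.76. CENPM had a log2 fold change of −0.15 (−0.46 to 0.15), and CENPW, a histone-fold subunit, 0.10 (−0.08 to 0.28). With library totals alone CENPN and CENPM passed as lower (−0.26, adjusted p = 0.0195, with 0.0195 to 1.000 over the alternatives of CENPN, and −0.38, adjusted p = 0.0223, with 0.0223 to 1.000 for CENPM) and CENPW took a negative sign without passing. CENPN and CENPM also passed as lower with upper quartile factors, and CENPM passed as lower without depleted replicate 2 (−0.27, adjusted p = 0.0459).

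Among genes of the spindle, chromosome structure and cytokinesis, 8 of 10 fell (80.0%) and 1 rose (10.0%), beside 39.4% and 39.1% of all genes tested. ASPM, which organises spindle poles, was at 18.7, 19.1 and 17.1 CPM in depleted and 93.2, 92.3 and 101 CPM in replete libraries, and fell by 2.16 (SE 0.10, edgeR adjusted p = 3.54e-10). MKI67, the Ki-67 protein that coats mitotic chromosomes and is a common marker of cycling cells, was at 67.2, 68.8 and 66.0 CPM in depleted and 188 CPM in each replete library, and fell by 1.25. TOP2A, the topoisomerase that untangles sister chromatids, was at 522, 615 and 573 CPM in depleted and 1228, 1291 and 1301 CPM in replete libraries, and fell by 0.93 (SE 0.07, edgeR adjusted p = 6.53e-08). None of these 3 genes had overlapping groups, and depleted lay below replete, as for 47.8% of all genes tested.

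Falls were also seen in PRC1, which bundles the central spindle (−1.22), NUSAP1, a microtubule-binding spindle protein (−1.18), CKAP2, a spindle-associated protein (−1.10), DLGAP5, which stabilises kinetochore fibres (−0.66), and HMMR, a spindle protein and hyaluronan receptor (−0.46). ECT2, which activates the small GTPase RhoA for cytokinesis, was at 113, 90.9 and 101 CPM in depleted and 90.7, 87.3 and 86.6 CPM in replete libraries, so that the groups nearly touched. It rose by 0.43 (SE 0.09, edgeR adjusted p = 0.000563), and with library totals alone by 0.20 without passing (adjusted p = 0.0516, with 1.52e-08 to 0.999 over its alternatives). ANLN, anillin, a scaffold of the contractile ring, was at 128, 80.9 and 105 CPM in depleted and 147, 126 and 129 CPM in replete libraries, which overlap, and did not pass (−0.13, 95% interval −0.44 to 0.18). Without depleted replicate 1 ANLN passed as lower (−0.29, adjusted p = 0.0290, with 0.0288 to 1.000 over its alternatives), and without depleted replicate 2 its log2 fold change was 0.03. ANLN also passed as lower with upper quartile factors.

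FOXM1, the transcription factor that with B-MYB and MuvB switches on many G2 and mitosis genes, was at 17.8, 18.2 and 13.5 CPM in depleted and 38.2, 32.96 and 40.4 CPM in replete libraries. It fell by 0.94 (SE 0.14, edgeR adjusted p = 2.81e-05), with no overlap between groups.

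Ratios between partner genes within a library do not depend on how libraries are scaled, and 15 pairs of complex partners, subunits or paralogs were compared with exact two-sided permutation tests. With 3 against 3 libraries the smallest possible p is 0.1, and the smallest adjusted over the 15 pairs was 0.115, so no pair could pass. The libraries of both groups did not overlap in 13 of the 15 pairs. For the CPM of single genes, which is a different measure, the ranges did not overlap for 81.0% of all genes tested. No share over other pairs of genes was computed. NDC80 counts per NUF2 count were 0.888, 0.710 and 0.898 in depleted and 0.174, 0.157 and 0.166 in replete libraries, the largest shift of the 15 at 4.99-fold (exact permutation p = 0.1, adjusted 0.115). CKS1B per CDK1 rose from 2.17 to 2.27 in replete libraries to 4.83 to 5.80 in depleted ones, by 2.35-fold in the mean, and CKS2 per CDK1 was 2.86-fold higher. CCNB1 per CDK1 was lower, at 0.0781, 0.128 and 0.105 in depleted and 0.225, 0.216 and 0.213 in replete libraries. TPX2 per AURKA was 0.891, 1.04 and 0.968 in depleted and 0.413, 0.410 and 0.418 in replete libraries.

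Among the other pairs, CCNB1 per CCNB2 overlapped between groups, with a mean log2 ratio of −0.05 ± 0.42 in depleted and 0.10 ± 0.07 in replete libraries (exact permutation p = 0.7, adjusted 0.7). CDCA8 per BIRC5, partners in the passenger complex, also overlapped, at −1.75 ± 0.05 and −1.86 ± 0.14 (exact permutation p = 0.300, adjusted 0.321). PTTG1 per ESPL1 was 15.02, 16.9 and 16.9 in depleted and 20.7, 23.7 and 18.5 in replete libraries, and BUB3 per BUB1 was 2.18-fold higher in depleted libraries. CDC25C per CDC25A was 2.74-fold lower, and CDC25B per CDC25A was 1.55-fold higher. The ratio of SPC24 to SPC25 rested on 0 to 6 counts of SPC24 per library.

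**Figure D4:**
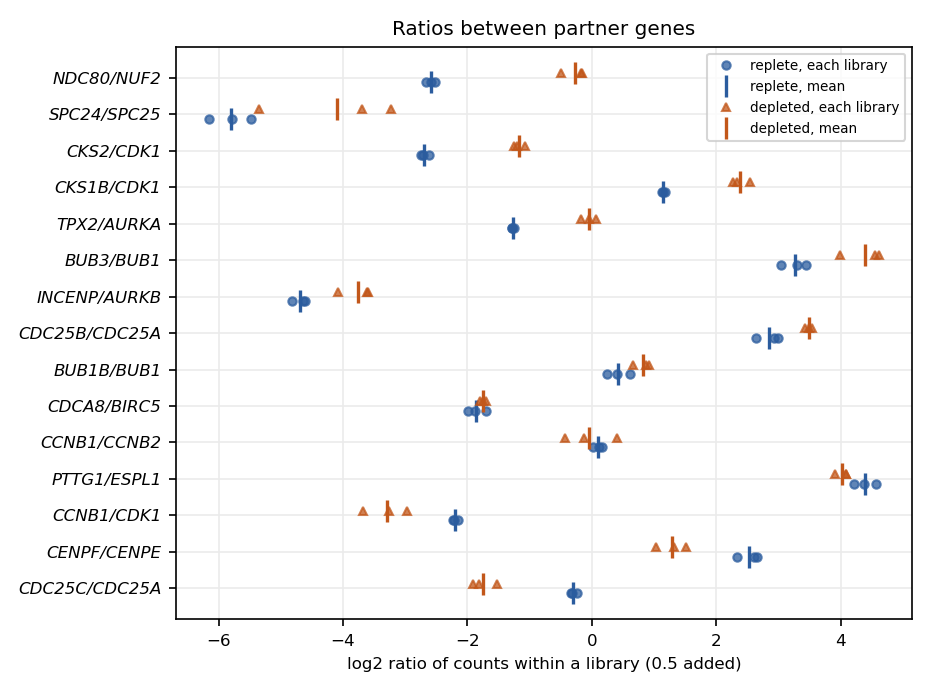
Log2 ratio of the counts of partner genes within each library (x axis, 0.5 added to each count), with blue circles for replete and orange triangles for depleted libraries and vertical ticks for group means, ordered by the difference. The groups stand apart in 13 of 15 pairs, most for NDC80 per NUF2, and mix for CCNB1 per CCNB2 and CDCA8 per BIRC5.

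Other genes of mitosis outside the 47 were taken from 6 lists, and 50 of 90 tested genes fell, 26 rose and 14 did not pass, with a median log2 fold change of −0.37. That is 55.6% lower and 28.9% higher, beside 39.4% and 39.1% of all genes tested. Among the other kinetochore, centromere and checkpoint genes, 20 of 32 fell and 8 rose. HJURP, the chaperone that loads CENPA, averaged 30.8 ± 2.91 CPM in depleted libraries against 298 ± 3.10 CPM in replete ones, and fell by 3.04 (SE 0.09, edgeR adjusted p = 7.13e-12). CENPU, of the centromere network, fell by 2.56 and DSN1, of the MIS12 complex, fell by 2.43. MIS12, another subunit of that complex, rose by 1.797, from 28.7 ± 2.94 to 85.1 ± 4.58 CPM, and SKA2, of the complex that couples kinetochores to microtubules, rose by 0.89. CENPP also rose, by 1.28, but its 1302, 766 and 978 counts in depleted libraries were nearly those of IPPK (1295, 756 and 980), whose exons it overlaps on the other strand.

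Condensin, which compacts mitotic chromosomes, fell in 7 of 8 genes (87.5%), where 39.4% of all genes tested fell. NCAPH, its kleisin subunit, fell from 35.3 ± 0.712 to 4.01 ± 1.61 CPM (−2.90), while NCAPD3 fell by 1.92 and NCAPD2 fell by 1.5997. SMC4, an ATPase subunit, rose by 0.39 with CPM ranges that overlap. Cohesin and its regulators had 6 of 11 genes lower (54.5%) and 4 higher (36.4%), beside 39.4% and 39.1% of all genes tested. SMC1A, a core ATPase, fell by 0.96 and RAD21, the ring's kleisin, fell by 0.40, whereas NIPBL, the loader, rose by 1.37 and WAPL, the release factor, by 1.26. ESCO2, an acetyltransferase of S phase cohesin, fell by 2.47, and STAG1, a ring subunit, rose by 1.15.

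The anaphase-promoting complex, the ubiquitin ligase that ends mitosis, had 7 of 17 tested genes lower (41.2%) and 6 higher (35.3%), with a median of 0.03. These shares are near the 39.4% lower and 39.1% higher of all genes tested. ANAPC5, a scaffold subunit, fell by 1.51 and UBE2C, its ubiquitin-conjugating enzyme, fell by 0.90, whereas UBE2S, the enzyme that extends ubiquitin chains, rose by 0.47, and ANAPC13, a small subunit, by 1.73. FBXO5, the inhibitor EMI1, fell by 1.16, and CDC26, a small subunit, rose by 0.99.

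Controls of mitotic entry gave 5 of 12 lower (41.7%) and 4 higher (33.3%), also near the shares of all genes tested (39.4% and 39.1%). NEK2, a centrosomal kinase, fell from 33.3 ± 3.91 to 5.29 ± 0.127 CPM (−2.42), and CHEK1, the checkpoint kinase that restrains CDC25, fell by 1.33. PPP2R2A, a regulatory subunit of the phosphatase PP2A that reverses CDK1 phosphorylation, rose from 78.0 ± 2.99 to 309 ± 41.8 CPM (2.21, edgeR adjusted p = 2.95e-10). ENSA, an inhibitor of that phosphatase, rose by 0.54, CDC14B, a phosphatase, rose by 1.42, and BORA, an activator of Aurora A and PLK1, fell by 0.66. The MuvB and DREAM complexes bind the CHR. Of 10 genes for their parts and for B-MYB, 5 fell and 3 rose, where 39.4% of all genes tested fell and 39.1% rose. MYBL2, B-MYB itself, fell by 1.87, TFDP1, the dimer partner of E2F factors, fell by 1.75 and RBBP4 fell by 1.14, whereas E2F4, an E2F factor of the repressive DREAM complex, rose by 1.33, from 49.9 ± 1.41 to 107 ± 7.35 CPM. The MuvB subunits LIN52 and LIN37 rose by 1.58 and 0.66. LIN37 was at 3.22 ± 0.242 CPM in depleted and 2.40 ± 0.568 CPM in replete cells, with ranges that overlap (edgeR adjusted p = 0.0341). The MuvB subunits LIN9 (−0.23) and LIN54 (0.21) did not pass, and RBL2 and RBL1 of the same list fell by 1.76 and 1.14. Of the genes named from these lists, CENPP, CENPU, NCAPD2, SMC4, RAD21, STAG1, ANAPC13, CDC26, BORA, RBBP4 and RBL2 have exons that overlap another gene on the opposite strand. AKTIP, the partner of RBL2, held 69, 43 and 60 counts in depleted and 208, 187 and 179 in replete libraries. RBL2 held 77, 36 and 49 counts in depleted and 198, 191 and 161 in replete libraries. Counts of SYNC, the partner of RBBP4, were 205, 178 and 137 in depleted and 411, 345 and 332 in replete libraries, beside 247, 210 and 171 and 528, 450 and 424 for RBBP4.

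**Figure D5:**
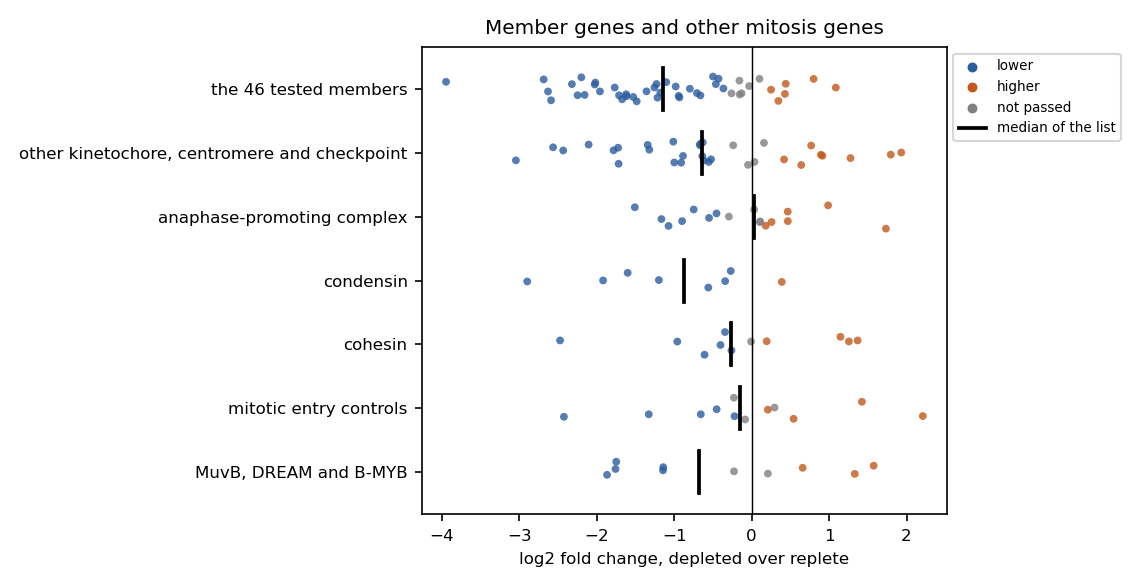
Log2 fold change (x axis, depleted over replete after TMM scaling) of the 46 tested members and of the genes in 6 other mitosis lists (y axis, points spread at random in height), with blue for genes that fell, orange for genes that rose, grey for genes that did not pass and a black bar at each list's median. The median is −1.14 for the members, −0.88 for condensin, −0.68 for MuvB, DREAM and B-MYB and 0.03 for the anaphase-promoting complex.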

How the data were processed

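Each of the authors' deposited files holds the raw counts of 1 library by gene symbol, from Lexogen QuantSeq 3′ mRNA libraries made from 500 ng of total RNA, per the labels' protocols. Bowtie2, edgeR and hg19 are named without role or version in the submitters' processing notes; how reads were counted, whether by strand, and on which annotation is not given in the sources used here. Members and lists were chosen with earlier results of these data known. Counts of symbols on several of the 25737 entries were summed; no member was among the 286 such symbols. Genes kept by filterByExpr (minimum count 10, total 15) were scaled by TMM factors and tested in edgeR 4.0.16 (R 4.3.3) by its robust quasi-likelihood test, depleted against replete, two-sided, with Benjamini-Hochberg adjustment over all 12739 genes. SE is the log2 fold change over the root of the F statistic. In simulated counts (12633 genes tested), 93% of 100 genes given a log2 change of 1, and 100% of 100 given 2, were called, and 13 of the 206 calls were false. The simulation used the same dispersion for every gene and library and changed only these genes, whereas 78.6% of all genes tested changed in the data. Its rates may therefore not hold for these data.

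Any member could be named, and of each pathway list the 3 smallest p in each direction among calls. RBL1, RBL2, LIN9 and LIN54 were named besides, to show the rest of their list. Exon overlaps came from GENCODE 29, used for names only since its build differs from hg19, and promoter windows from RefSeq. Alternatives were other scalings (DESeq2 size factors, library totals, upper quartile), filters, a replicate block, the largest entry per symbol, glmTreat, DESeq2 1.42.0, limma-voom (limma 3.58.1) and leaving out each library; removing a trend (loess, span 0.5) with the GC content and length of transcripts was chosen after seeing the data. Ratios of partner genes were tested by exact permutation (Python 3.11.15, numpy 2.4.6).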

Additional observations from a re-analysis of the deposited data

How the results depend on the processing

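Of the 46 tested members, 30 kept their direction and their side of the threshold in all of the 17 alternatives that tested them. The 16 others are members with a log2 fold change between −0.71 and 0.44. The count of members that rose was 6, and was 2 with library totals alone, 3 with upper quartile factors and 2 with glmTreat against 1.5-fold. It was 5 among genes with a mean of at least 10 CPM and 8 with the GC and length trend removed. Over all genes, 49.8% of the calls were higher with TMM factors, 41.1% with library totals alone and 41.7% with upper quartile factors. The share was 49.0% with glmTreat, 49.9% among genes with a mean of at least 10 CPM and 58.3% with the trend removed. With glmTreat, 28 members were lower, 3324 of all genes were higher and 3455 lower, and 15 genes of the pathway lists were higher and 29 lower. CENPW took log2 fold changes of −0.13 with library totals alone and −0.11 with upper quartile factors. Leaving out 1 library, CENPN ranged from −0.0686 to 0.00646 and ANLN from −0.289 to 0.0297, above 0 without depleted replicates 1 and 2 respectively. With the GC and length trend removed, CDC25B was at 0.31, CENPM at 0.29 and CENPN at 0.12. The cause of these changes was not tested. Leaving out 1 library gave 33 to 36 members lower and 5 to 6 higher. With the replicate block 34 members fell and 6 rose, as without it, and no member's call changed; same-numbered libraries deviated together with correlations of 0.119, 0.00611 and 0.0366, so the numbers were not taken to pair the samples. Low counts limit the precision for SPC24 and INCENP, and for SPC25 in the depleted libraries (20, 19 and 23 counts). CENPA held 29 counts in depleted replicate 2.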

Other observations

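Depleted replicate 2 moved some members more than others. Against the mean of the other depleted libraries on the log2 scale after TMM scaling, CENPA was at −1.31 there, CCNA2 at −0.70 and ANLN at −0.50, while CDC25C was at 0.54, INCENP at 0.46 and CCNB2 at 0.41. The median absolute deviation of this library was 0.186 over the members and 0.241 over all genes tested, and the members were lowest there in 15 and highest in 22 of 46 cases.

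Across the 46 tested members, the replete level (log2 CPM) and the log2 fold change had a Pearson r of 0.10 and a Spearman rho of 0.05, as a description across genes that share the same libraries. In GENCODE 29, 7 members have exons that overlap those of another gene on the opposite strand. EXOSC9, which overlaps CCNA2, fell by 1.12, FAM53C, which overlaps CDC25C, rose by 1.42, and KIAA0895, which overlaps ANLN, rose by 1.85.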
